A study of Homo sapiens with 30 samples.

Results

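Chromatin immunoprecipitation with sequencing (ChIP-seq) against MBD3 and TET1 was compared in HEK293T cells that still held their CTCF. The comparison took in 6608 MBD3 regions and 16246 TET1 regions, 22854 of the 70565 regions in the 8 peak lists of the study. A region is a called peak, or several called peaks of 1 list joined because they share at least 1 bp. A region is shared when it has at least 1 bp in common with a region of the other list, and specific otherwise. This rule gave 3774 shared regions in each list, 2834 MBD3-specific regions and 12472 TET1-specific regions. The shared regions form 3776 pairs, because 2 MBD3 regions and 2 TET1 regions each belong to 2 pairs.

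HEK293T is an established human embryonic kidney line, here with CTCF edited so that the auxin indole-3-acetic acid (IAA) can trigger its degradation. The cells had been transfected with the plasmids pcDNA3.1-ScFv-miniIAA7-mEGFP and pcDNA3.1-AtAFB2-mCherry, which carry the degradation system, so all groups share the edit and the transfection. MBD3, TET1, CTCF and TET2 were each precipitated from 3 samples without IAA and from 3 samples with 0.5 mM IAA, all labelled 72 h. The 2 conditions also have inputs, which makes 30 samples. One label describes the samples without IAA as DMSO, while the protocol mentions only medium without IAA. The authors pooled the 3 samples of a group before calling peaks. The lists hold no value per sample, so the spread between cultures was not measured here, and all intervals here cover counting error over regions alone. The number of reads behind each list and its control are not given in the sources used here.

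MBD3 is a subunit of the NuRD complex, which joins nucleosome remodelling with the removal of acetyl groups from histones. Unlike its relative MBD2, the mammalian protein binds methylated DNA poorly. TET1 is a dioxygenase that oxidises 5-methylcytosine and so starts the removal of DNA methylation, and TET2 is a related enzyme. CTCF is the zinc finger protein that binds insulators and anchors chromatin loops, and its binding at many sites is sensitive to DNA methylation. The lists give positions in the hg19 build without gene names, and no hg19 sequence or annotation was used here, so regions are named by position alone, as chromosome, start and end in hg19.

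More than 1 in 2 MBD3 regions lay on a TET1 region, and the reverse held for fewer than 1 in 4. TET1 was called at 57.1% of MBD3 regions (Wilson 95% interval 55.9% to 58.3%) and MBD3 at 23.2% of TET1 regions (22.6% to 23.9%). The TET1 list is the longer one, and this alone makes the 2 shares unequal. When both lists were cut to 6608 regions by −log10 q, each share was 38.1%. For comparison, the MBD3 list carried CTCF at 56.4% and TET2 at 6.33% of its regions. The TET1 list carried CTCF at 91.1% and TET2 at 2.78%.

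Most MBD3 regions had either both TET1 and CTCF or neither. A region is at CTCF when it has at least 1 bp in common with a CTCF region of the cells without IAA. CTCF was called at 89.4% of the shared MBD3 regions and at 12.5% of the MBD3-specific ones, a difference of 76.9 percentage points (Newcombe 95% interval 75.3 to 78.4). Seen the other way, TET1 was called at 3373 of 3727 MBD3 regions at CTCF and at 401 of 2881 MBD3 regions away from CTCF. Over all TET1 regions the 2 classes were close in this. CTCF was called at 89.3% of shared TET1 regions and at 91.6% of TET1-specific ones, a difference of −2.37 points (−3.50 to −1.30). MBD3 was called at 22.8% of TET1 regions at CTCF (22.1% to 23.4%) and at 28.0% of those away from it (25.7% to 30.3%). TET1 regions away from CTCF are weak, and at like fold the gap was wider and MBD3 more frequent away from CTCF. In the weakest 10% of the TET1 list MBD3 was called at 10.5% of regions at CTCF and 24.7% away from it, and in the next 3 deciles at 8.47%, 8.83% and 12.2% at CTCF and 26.1%, 42.2% and 32.9% away. MBD3-specific regions were therefore mostly regions without CTCF, while TET1-specific regions were mostly CTCF sites at which no MBD3 was called.

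Away from CTCF, TET2 was called more often at shared than at specific regions. It was called at 121 of 401 shared MBD3 regions, or 30.2%, and at 145 of 2480 MBD3-specific regions, or 5.85%, a difference of 24.3 points (19.9 to 29.1). In the TET1 list the corresponding shares were 28.6% of shared and 7.48% of TET1-specific regions away from CTCF, a difference of 21.2 points (16.6 to 26.0). Shared regions away from CTCF also more often had a fold under 3, at 9.48% against 0.645% of MBD3-specific regions. Without regions under 3-fold TET2 was called at 24.5% of shared and 5.76% of MBD3-specific regions away from CTCF, a difference of 18.8 points (14.5 to 23.5). At CTCF, TET2 was rarer than away from it in shared and in TET1-specific regions, but not in MBD3-specific ones. The lists differed in direction there. TET2 was called at 3.74% of shared and 7.34% of MBD3-specific regions at CTCF, and at 3.95% of shared and 1.09% of TET1-specific regions at CTCF. Over all MBD3 regions the share with TET2 was 6.54% in shared and 6.03% in specific regions, and the interval of the difference held 0 (−0.687 to 1.68 points).

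Shared regions were the stronger ones in both lists. Strength is the authors' fold enrichment of the peak, given here as its percentile within its own list, where 100 is strongest. Folds of different lists were not compared. Shared MBD3 regions had a median percentile of 61.9 (quartiles 34.9 and 82.5), against 36.8 (17.4 and 58.5) for MBD3-specific regions. The underlying median folds were 5.90 and 4.94. Shared TET1 regions had a median percentile of 74.1 (42.2 and 90.5), against 44.6 (22.1 and 67.8) for TET1-specific regions, with median folds of 9.53 and 6.92. The quartile ranges overlap in both lists, so strength does not separate the classes region by region. The MBD3 difference in fold depended on the q-value. For this, both lists were cut to a bound on −log10 q, sharing was called again and percentiles were ranked again among the regions kept. A region counted as specific there may thus lie on a region of the other list below the bound. At a bound of 10 the difference turned: the median of 868 shared MBD3 regions minus that of 143 specific ones was −21.1 points. At a bound of 5 the difference was 1.53 points, and its interval held 0 (−3.53 to 6.55).

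The share of MBD3 regions with TET1 was 45.0% in the weakest decile of the MBD3 list, 35.2% in the next and 86.8% in the strongest. The weakest decile holds the 88 MBD3 regions under 3-fold, of which 70 were shared. The deciles at CTCF began at 81.7%, had their lowest share, 78.1%, in the next decile and ended at 96.9%. Those away from CTCF began at 17.3%, had a lowest share of 9.03% and ended at 34.0% (25.6% to 43.4%), which is 36 of 106 regions. Even the weakest MBD3 regions at CTCF thus carried TET1 more often than the strongest away from it. In the TET1 list the share with MBD3 lay between 12.6% and 16.7% in the 6 weaker deciles and climbed to 60.4% (58.0% to 62.7%) in the strongest. All 1622 TET1 regions of that strongest decile were at CTCF, so no TET1 region away from CTCF stood that high.

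**Figure D1:**
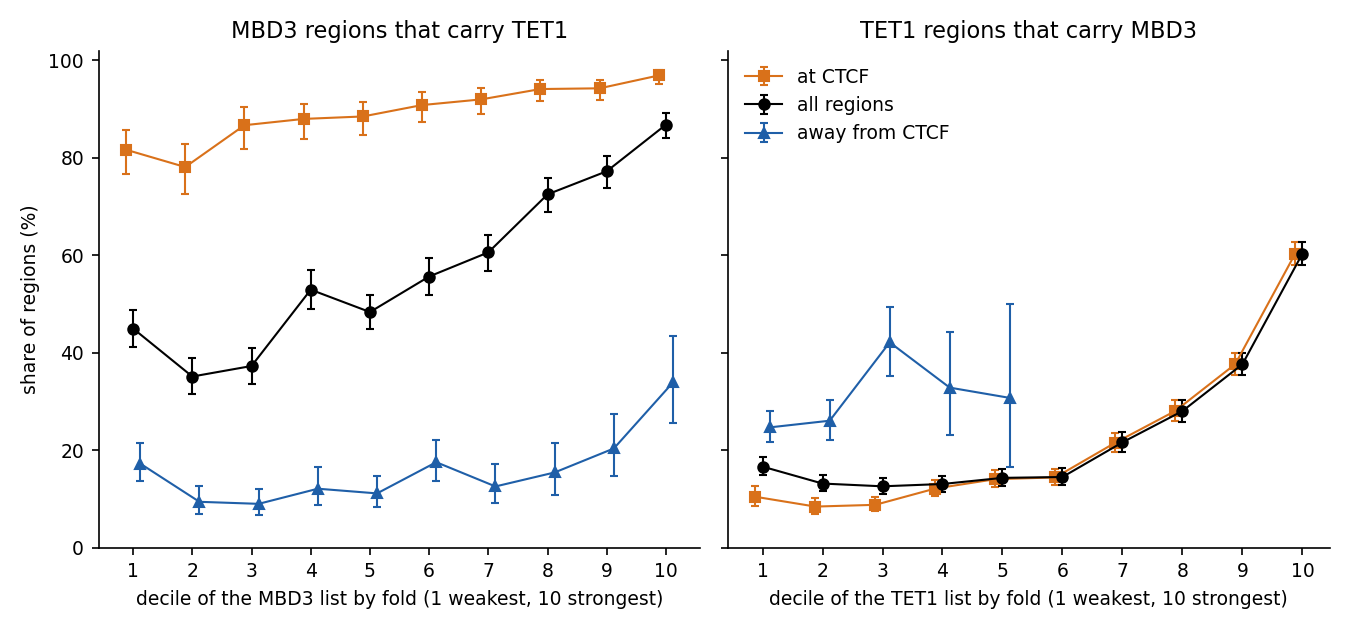
Share of MBD3 regions that carry TET1 (left) and of TET1 regions that carry MBD3 (right), in %, for each decile of the list by fold, with Wilson 95% intervals as bars and groups of under 20 regions left out. On the left the regions at CTCF stay above 78% and those away from CTCF reach 34.0% at most, while on the right the share climbs in the stronger deciles, to 60.4%.

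The strongest regions of one list met the strongest of the other in part. Of the 661 MBD3 regions in the top 10% by fold, 574 carried TET1 and 360 (54.5%) carried a TET1 region that was itself in the top 10% of its list. Of the 1622 TET1 regions in the top 10%, 979 carried MBD3 and the same 360 pairs made up 22.2%. At the other end, 7 of 660 MBD3 regions in the weakest 10% lay on a top TET1 region, and 12 of 1620 TET1 regions in the weakest 10% lay on a top MBD3 region.

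Within pairs, a stronger MBD3 region went with a stronger TET1 region. Over the quintiles of the MBD3 list, weakest to strongest, the paired TET1 regions had median percentiles of 36.0, 58.2, 65.6, 80.1 and 91.9. Over the quintiles of the TET1 list, the paired MBD3 regions had medians of 33.1, 42.7, 45.2, 57.6 and 79.0. Away from CTCF the TET1 partners were weak in every MBD3 quintile, with medians of 3.52, 14.5, 15.6, 15.5 and 20.5. All TET1 regions away from CTCF had a median of 10.4, so this weakness was not particular to the partners. By TET1 quintile, the MBD3 partners away from CTCF had medians of 37.6, 58.1, 54.4, 75.9 and 42.8. The pairs behind these numbered 286, 98, 11, 3 and 1. Paired regions share their genomic position and are not independent measurements, and no test was made.

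**Figure D2:**
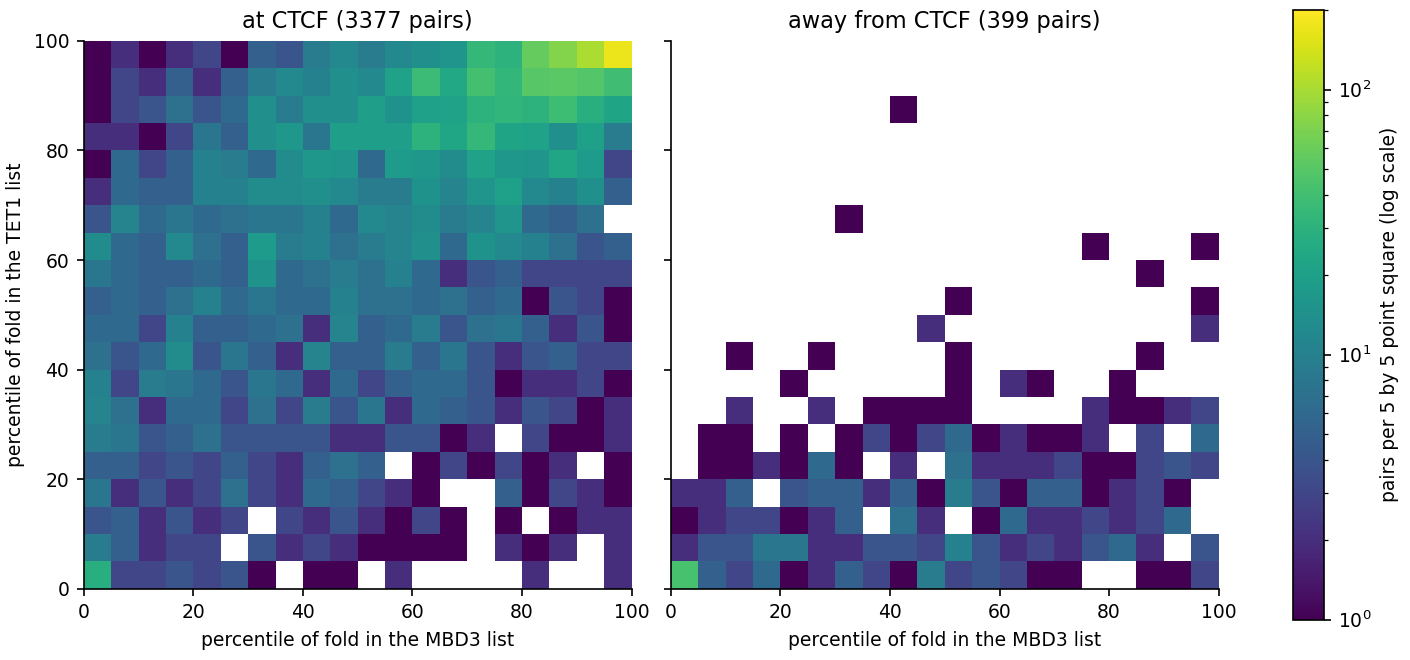
Percentile of fold in the MBD3 list (horizontal) and in the TET1 list (vertical) for the 3377 pairs at CTCF (left) and the 399 pairs away from it (right), with colour for the number of pairs per square on a log scale. Pairs at CTCF crowd the corner where both are strong, and pairs away from CTCF lie along the bottom, at low TET1 percentiles over the whole range of MBD3.

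Strength in the 2 lists differed widely in a minority of pairs. The percentiles lay within 10 points of each other in 1285 pairs (34.0%), and 437 pairs were over 50 points apart. In 261 of these TET1 was the higher, and all 261 were at CTCF. In the other 176 MBD3 was the higher, and 67 of them were at CTCF. Of all 3776 pairs, 3377 were at CTCF. A gap of over 50 points with TET1 above needs a TET1 percentile over 50, which few pairs away from CTCF could reach. TET1 quintiles 3 to 5 held 11, 3 and 1 of the 399 pairs away from CTCF. The widest gap with TET1 above was at chr1:151707600-151707824, where MBD3 stood at 3.50-fold (rank 6387) and TET1 at 15.4-fold (rank 577). The pairs at chr3:88252783-88253057 and chr5:137785710-137786062 were similar, with MBD3 ranks of 5950 and 6424 and TET1 ranks of 203 and 1367. With MBD3 above, a single MBD3 region of 1477 bp at chr17:80317361-80318837, of 9.42-fold (rank 229), held 2 separate TET1 regions of 2.73- and 3.13-fold (ranks 16112 and 15991), with TET2 and without CTCF. At chr13:75747670-75748491, MBD3 stood at 9.85-fold (rank 153) and TET1 at 3.52-fold (rank 15610), and both CTCF and TET2 were called.

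The 5 pairs that ranked highest in both lists all lay at CTCF, as did all 1622 TET1 regions of the strongest decile. At chr1:147553515-147553862, MBD3 was enriched 13.6-fold (rank 8) and TET1 38.1-fold (rank 3), with summits 2 bp apart. At chr1:120688432-120688665 the folds were 13.5 for MBD3 (rank 11) and 27.2 for TET1 (rank 12), with summits 4 bp apart. At chr17:32527026-32527277, MBD3 was at 14.0-fold (rank 3) and TET1 at 24.2-fold (rank 31), and the summits fell on the same base. The others lay at chr2:178029306-178029650 and chr20:47950516-47950788, with MBD3 ranks of 3 and 16, TET1 ranks of 34 and 23 and summits 21 and 11 bp apart. TET2 was called at none of the 5, and with IAA no antibody was called at any of them. Both calls were rare over all shared MBD3 regions too, at 6.54% for TET2 and 1.51% for any antibody with IAA.

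The strongest specific regions differed in the CTCF call. The MBD3-specific region with the highest fold, at chr7:84951591-84951932, stood at 11.8-fold (rank 27) without CTCF, and the nearest TET1 summit was 135591 bp away. The second was chr10:20781191-20781705 at 11.2-fold (rank 45) with CTCF, and the third was chr2:209130592-209130885 at 11.1-fold (rank 52) with CTCF and TET2. The next, chr10:29565167-29565763 and chr4:182682365-182682633, ranked 60 and 69 and lacked CTCF. No MBD3-specific region thus ranked above 27 in its list. In the TET1 list the specific regions began at rank 1, with chr17:17875591-17876396 at 40.8-fold. The region at chr17:45973080-45973665 ranked 2, at 40.3-fold, with the nearest MBD3 summit 5937 bp away. The 3 that followed, at chr10:5931872-5932204, chr1:154955444-154955919 and chr17:74667694-74668139, ranked 7, 14 and 17, and all 5 were at CTCF. The strongest TET1-specific region without CTCF lay at chrX:70288293-70288609 and reached rank 1912, at 12.0-fold. The next such regions were at chrX:18693005-18693212 (rank 2350) and at chr1:161397821-161398072 (rank 4844).

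The summits of shared regions nearly coincided. The MBD3 summit lay a median of 12 bp from the TET1 summit (quartiles 5 and 25), within 10 bp in 44.0% of pairs, within 50 bp in 89.1% (88.1% to 90.1%) and within 200 bp in 98.3%. Paired regions overlap by definition, and shared MBD3 and TET1 regions had median widths of 183 and 231 bp. The share within 200 bp was thus largely set by the pairing. There was little lean to one side: MBD3 had the higher coordinate in 1928 pairs, TET1 in 1749, and 99 shared the base, with a median signed offset of 1 bp. At CTCF the median distance was 11 bp (5 and 22) over 3377 pairs, and 93.2% were within 50 bp. Away from CTCF it was 44 bp (18 and 98) over 399 pairs, and 55.1% were within 50 bp. A pair counts as at CTCF when either of its regions touches a CTCF region.

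**Figure D3:**
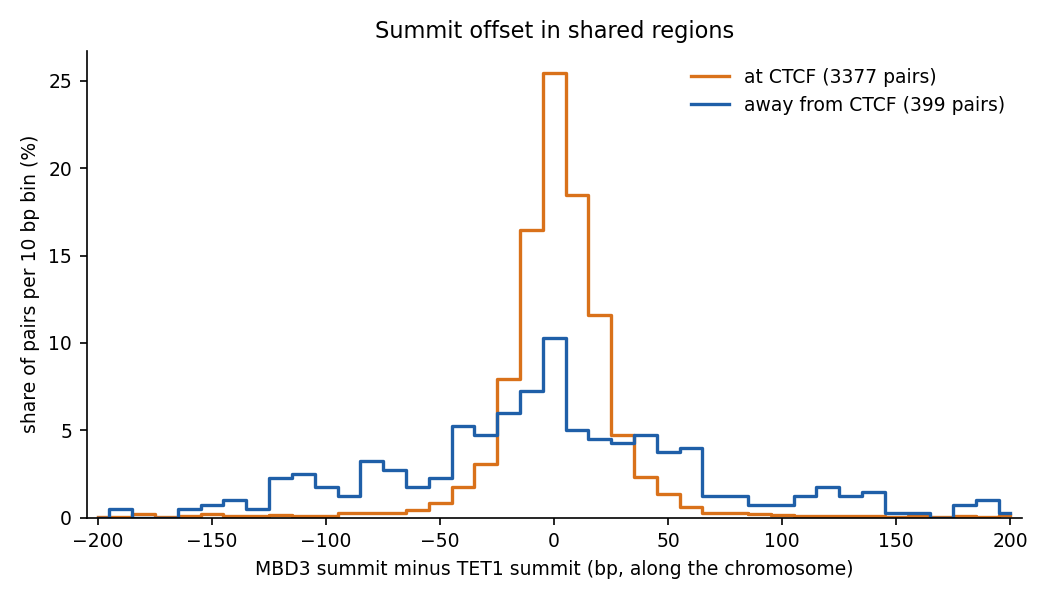
Offset of the MBD3 summit from the TET1 summit in bp along the chromosome (horizontal) against the share of pairs per 10 bp bin in % (vertical), for 3377 pairs at CTCF and 399 away from it. The pairs at CTCF form a narrow peak around 0, and those away from CTCF spread over more than 100 bp to either side.

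At CTCF, summits lay closer together where the regions were stronger. Over all pairs the median distance in the quintiles of the MBD3 list, weakest to strongest, was 18, 17, 14, 11 and 9.5 bp. Over the quintiles of the TET1 list it was 40, 22, 14, 11 and 9 bp. The make-up of these quintiles changes, since 286 of 486 pairs in the weakest TET1 quintile and 1 of 1601 in the strongest were away from CTCF. At CTCF alone the medians were 17, 15, 12, 11 and 9 bp by MBD3 strength and 32, 19, 14, 11 and 9 bp by TET1 strength. Away from CTCF they had no such order by MBD3 strength, at 27.5, 46.5, 59.5, 40 and 37 bp. For the 360 pairs in the top 10% of both lists it was 8 bp (quartiles 3 and 14), and 357 of these were within 50 bp. The 136 pairs with a joined region had a median of 32.5 bp. The pair with the farthest summits, 1125 bp, lay at chr5:10061-11740, close to the start of the chromosome, where regions of 1659 bp (MBD3) and 1679 bp (TET1) covered almost the same bases. The others far apart were the MBD3 region of 1477 bp on chromosome 17 described above (859 bp) and a pair at chr13:78789326-78790137 (524 bp), which carried TET2 and no CTCF.

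Against the CTCF summit, TET1 sat closer than MBD3. Over 3367 pairs in which both regions touched CTCF, MBD3 summits lay a median of 11 bp from CTCF summits (5 and 20) and TET1 summits 6 bp (3 and 11). MBD3 was the nearer in 1040 pairs (30.9%), TET1 in 2181 (64.8%), and 146 were equal. The TET1 list also has the higher −log10 q, with medians of 7.04 in shared MBD3 regions and 24.0 in shared TET1 regions, and the part of this in the difference was not tested. The specific regions at CTCF differed more. The 354 MBD3-specific regions at CTCF lay a median of 38 bp from the CTCF summit (15 and 96.8), with 56.5% within 50 bp, against 93.2% of shared MBD3 regions there. The 11429 TET1-specific regions at CTCF lay 8 bp from it (3 and 14), with 95.8% within 50 bp, against 97.2% of shared TET1 regions there. The few MBD3-specific regions that touched CTCF were thus often off its centre, while TET1-specific regions lay nearly as central as shared ones.

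In most pairs the MBD3 region was the narrower. It lay wholly inside the TET1 region in 1988 pairs (52.6%), and TET1 lay wholly inside MBD3 in 291 (7.71%). MBD3 was the wider in 866 pairs, TET1 in 2891 (76.6%), and 19 were equal. The regions overlapped by a median of 169 bp (155 and 194), and 3468 pairs shared at least 50% of both. The bound of 1 bp decided few cases: 2 pairs overlapped by 10 bp or less and 10 by under 50 bp, with median percentiles of 38.6 in the MBD3 list and 7.17 in the TET1 list. Just outside it, no specific region ended within 10 bp of the other list, and within 50 bp there were 7 MBD3-specific regions (median percentile 52.1) and 7 TET1-specific regions (10.2).

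Width set the classes apart in opposite directions in the 2 lists. Shared MBD3 regions were narrower than MBD3-specific ones, with a median of 183 bp (quartiles 163 and 220) against 199 bp (167 and 258). The difference of −16 bp was −35 bp among regions with a fold of at least 5, −50 bp with −log10 q of at least 5 and −99 bp with at least 10. Shared TET1 regions were wider than TET1-specific ones, at 231 bp (198 and 273) against 189 bp (166 and 223). The MBD3 direction turned away from CTCF, where shared regions had a median of 251 bp and specific ones 201 bp. Without regions under 3-fold these medians were 256 and 201 bp. At CTCF the MBD3 medians were 180 bp in shared and 190 bp in specific regions. In the TET1 list shared regions were the wider both at CTCF (233 against 190 bp) and away from it (202 against 178 bp).

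The widths also differed at like strength. In the strongest quintile of the MBD3 list, shared regions had a median of 191 bp (171 and 229) and MBD3-specific ones 252 bp (204 and 319), over 1084 shared and 237 specific regions. In the weakest quintile the MBD3 medians were 184 bp in shared and 189 bp in specific regions. Specific MBD3 regions thus broadened with strength while shared ones hardly did. In the TET1 list both classes broadened, to 245 bp in shared and 220 bp in specific regions of the strongest quintile, against 203 and 176 bp in the weakest. CTCF was called at 93.8% of shared and 19.4% of MBD3-specific regions in the strongest MBD3 quintile and at 80.3% and 13.4% in the weakest.

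**Figure D4:**
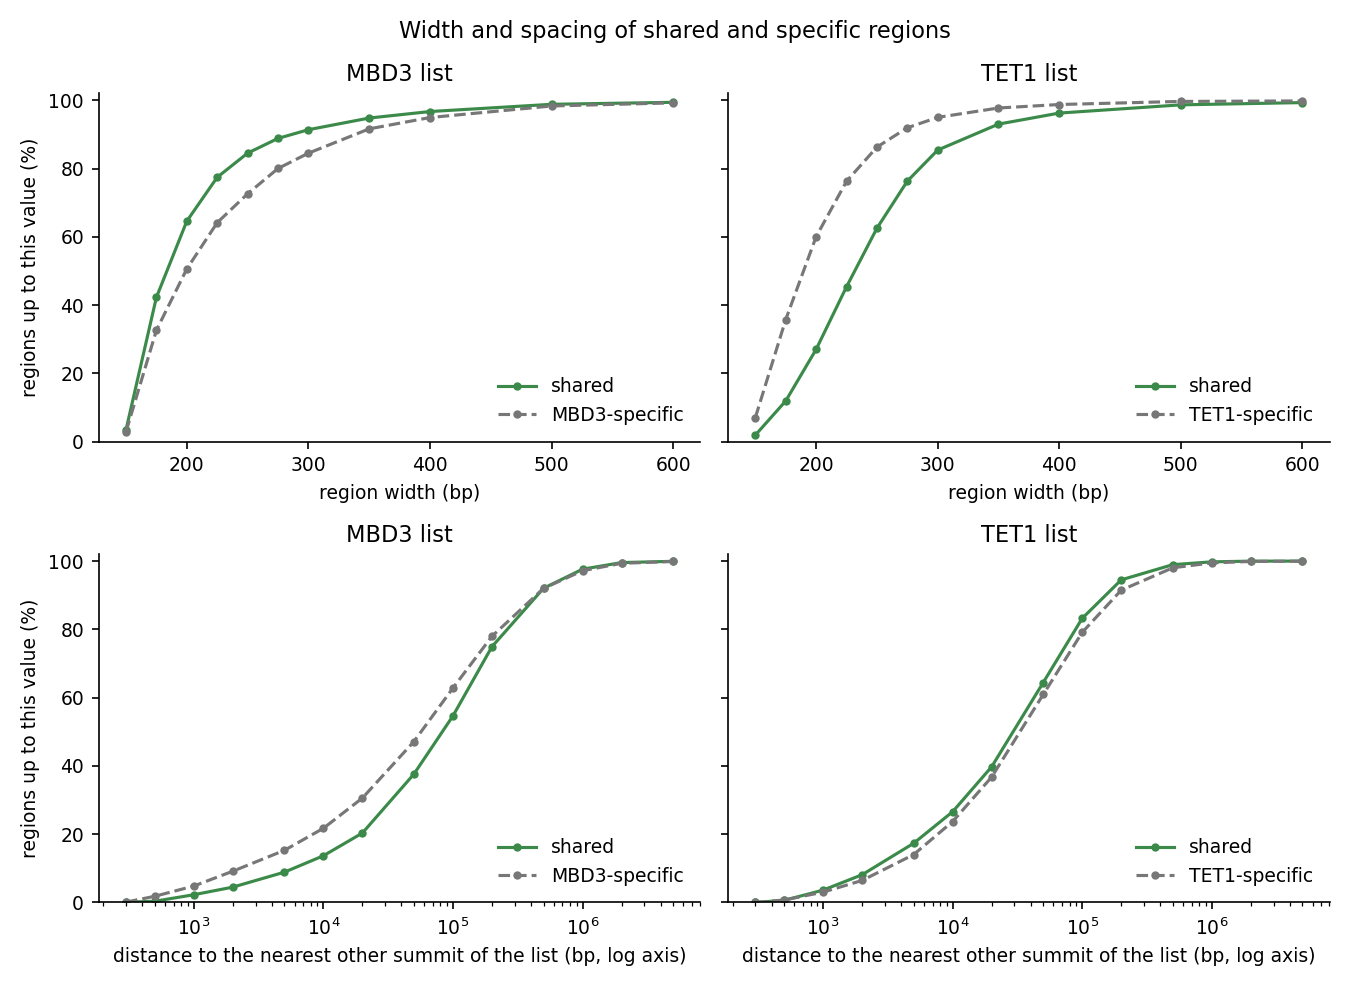
Cumulative share of regions (vertical, %) by region width (top, bp) and by distance to the nearest other summit of the same list (bottom, bp, log axis), for the MBD3 list (left) and the TET1 list (right), with shared regions as solid and specific regions as dashed lines. The shared MBD3 regions are narrower and lie farther from the nearest other MBD3 summit than the MBD3-specific ones. The shared TET1 regions are wider and lie slightly closer to the nearest other TET1 summit than the TET1-specific ones.

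MBD3-specific regions lay closer to other MBD3 regions than shared ones did. The nearest other summit of the MBD3 list was a median of 83107 bp away for shared regions (27157 and 200542) and 57435 bp for MBD3-specific regions (13616 and 175171). Another MBD3 region lay within 10 kb of 13.6% of shared and 21.7% of MBD3-specific regions, a difference of −8.05 points (−9.94 to −6.19). Away from CTCF this turned, with 31.4% of shared and 22.5% of MBD3-specific regions, a difference of 8.92 points (4.26 to 13.9). Without regions under 3-fold the direction stayed, at 25.1% and 22.2%, but the interval of the difference held 0 (−1.60 to 7.88 points). The median distance away from CTCF was 30135 bp for shared and 54342 bp for MBD3-specific regions, weak regions included. In the TET1 list the shares within 10 kb were 26.6% of shared and 23.7% of TET1-specific regions, a difference of 2.88 points (1.31 to 4.50).

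Specific regions rarely lay within 1 kb of a summit called in the other list. Signal of the other antibody too weak to be called is not in the lists and was not measured. The nearest TET1 summit was a median of 44011 bp from an MBD3-specific region (15188 and 106824), and the nearest MBD3 summit 112716 bp from a TET1-specific region (38738 and 275682). Within 1 kb of the other list lay 113 MBD3-specific regions (3.99%) and 174 TET1-specific regions (1.40%). Within 100 kb lay 72.8% of MBD3-specific and 46.6% of TET1-specific regions. The longer TET1 list makes a TET1 summit easier to find nearby, so the 2 distances are not a comparison of the proteins.

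Chromosomes differed in how much of their MBD3 was shared. TET1 was called at 84.4% of the MBD3 regions of chromosome 19 (78.2% to 89.0%), 79.4% on chromosome 22, 79.2% on chromosome 16 and 78.1% on chromosome 17. The lowest shares were 41.2% on chromosome 13 (35.8% to 46.7%), 41.7% on chromosome 4 and 44.8% on chromosome 18. The share of MBD3 regions at CTCF ran alongside, at 86.7% on chromosome 19 and 35.7% on chromosome 13. Among MBD3 regions at CTCF alone, TET1 was called at 94.0% on chromosome 19 and 87.4% on chromosome 13, so most of the gap between these 2 chromosomes was absent there. The lowest such share was 77.6%, on chromosome 4, and the highest 98.2%, on chromosome 22. The share of TET1 regions with MBD3 varied less, between 16.6% on chromosome 22 and 28.8% on chromosome 15.

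**Figure D5:**
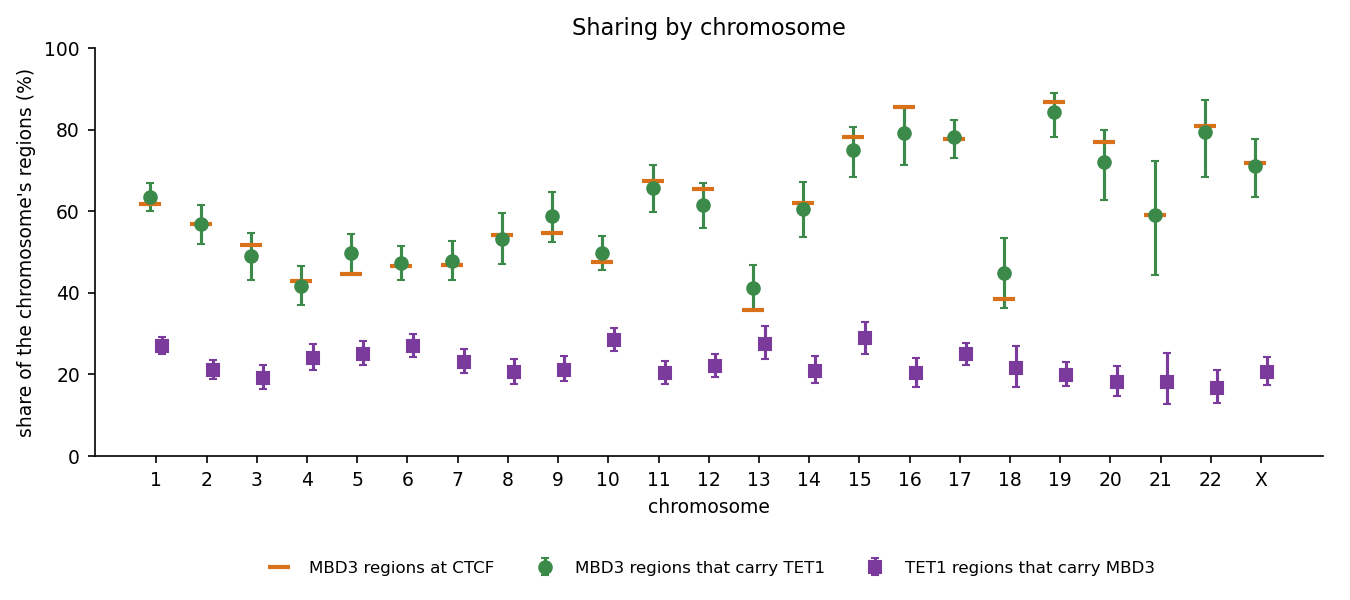
Share of MBD3 regions that carry TET1 (circles) and of TET1 regions that carry MBD3 (squares) on chromosomes 1 to 22 and X, in %, with Wilson 95% intervals, and the share of MBD3 regions at CTCF (orange bars). The circles range between 41.2% on chromosome 13 and 84.4% on chromosome 19 and lie near the orange bars, while the squares stay between 16.6% and 28.8%.

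The lists also spread differently over the chromosomes. Chromosome 13 held 4.71% of MBD3 regions and 2.86% of TET1 regions, a ratio of 1.64, the highest of the 23 chromosomes. Chromosome 10 held 8.25% of MBD3, 5.85% of TET1 and 4.61% of CTCF regions. Its share was 7.18% of shared and 9.67% of MBD3-specific regions, so both classes were frequent there. Chromosomes 4 and 6 also held more of the MBD3 list, with ratios of 1.42 and 1.40. The lowest ratios were 0.514 on chromosome 22 and 0.582 on chromosome 19.

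Some segments of 1 Mb were dense in 1 or more of the classes. The one between 67 and 68 Mb on chromosome 13 held 30 MBD3-specific, 10 shared and 26 TET1-specific regions, with 27 CTCF regions, the most MBD3-specific regions of any segment. The next, between 68 and 69 Mb on chromosome 14, held 16 MBD3-specific and 3 shared regions, and one between 140 and 141 Mb on chromosome 6 held 12 MBD3-specific and 0 shared regions. The 20 fullest segments held 5.48% of shared, 7.78% of MBD3-specific and 3.73% of TET1-specific regions, each class by its own fullest segments. Shared regions were densest between 114 and 115 Mb on chromosome X, with 15 shared, 1 MBD3-specific and 4 TET1-specific regions, and between 26 and 27 Mb on chromosome 1, with 14, 0 and 5. TET1-specific regions were densest between 7 and 8 Mb on chromosome 17, with 30 beside 5 shared and 0 MBD3-specific regions.

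A small set of shared regions had very low fold. A fold under 3 was found in 70 shared and 18 MBD3-specific regions of the MBD3 list, 1.85% and 0.635%, and in 64 shared and 134 TET1-specific regions of the TET1 list, 1.70% and 1.07%. The 70 shared MBD3 regions had a median fold of 2.09 but a median −log10 q of 16.0, and 50 of them carried TET2 while 32 were at CTCF. The 64 shared TET1 regions were alike, with a median fold of 2.01, a median −log10 q of 27.7 and TET2 at 50. Mitochondrial DNA gave 14 of these MBD3 regions, all shared, and 14 TET1 regions, 13 of them shared, none at CTCF, with folds of 1.21 to 2.01 for MBD3 and 1.30 to 2.18 for TET1.

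Few regions were called again with IAA, where the MBD3 list holds 50 regions and the TET1 list 325, so few could be. MBD3 was called again at 12 of its 6608 regions, or 0.182%, with 12 of 3774 among shared and 0 of 2834 among MBD3-specific regions. The Wilson 95% interval for 0 of 2834 reaches up to 0.135%. TET1 was called again at 36 of its 16246 regions, with 21 of 3774 among shared and 15 of 12472 among TET1-specific regions. The share was thus higher among shared regions in the TET1 list too. The 12 MBD3 regions include 7 away from CTCF. In the MBD3 list, any of the 4 antibodies was called with IAA at 57 shared (1.51%) and 5 MBD3-specific regions (0.176%). Over all MBD3 regions the share was 0.938%. In the TET1 list the counts were 57 shared (1.51%) and 45 TET1-specific regions (0.361%), and the share over all was 0.628%.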

How the data were processed

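The authors pooled the 3 samples of each group and deposited 1 peak list per antibody and condition, 8 in all. The submitters' processing notes name the build hg19, MACS2 2.1.2 and Bowtie2 2.3.4, with FastQC 0.11.7, bedtools 2.25.0 and SAMtools 1.9, with no role for each. Fold enrichment, a ratio, and −log10 of the q-value are the authors' deposited values for each peak, and the deposited summit offset gives the summit position. Read totals are not in the lists, so depth is unknown and sets how many weak peaks were called.

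Rows of a list sharing at least 1 bp were joined, and the region took their top fold and −log10 q, with its summit from the most significant row. This turned 6736 MBD3 and 16461 TET1 rows into 6608 and 16246 regions. Percentiles rank fold within a list, with ties at their mean rank, and deciles and quintiles are cut on them. Intervals are Wilson's for shares, Newcombe's for differences and order statistics for medians, at 95%. No p-value was computed, since regions are not replicates. Coordinates are 1-based, in hg19. Python 3.11.15, numpy 2.4.6, pandas 2.3.3, scipy 1.17.1 and matplotlib 3.10.9 were used, and the classification was tested on simulated data.

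The regions named are the 5 shared pairs strongest in both lists, the 5 strongest specific regions of each list, the 3 pairs with the widest percentile gap in each direction, the 3 with the farthest summits and the 3 strongest specific regions of each list without CTCF, on chromosomes 1 to 22 and X. Regions and measures were chosen with earlier results of these data known. The alternatives by CTCF, by fold under 3 and without 5 dense segments, the shares and widths away from CTCF without regions under 3-fold, the widths by quintile, the weak regions, the summit distances by quintile and CTCF and the sharing at CTCF by chromosome were added after seeing the data.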

Additional observations from a re-analysis of the deposited data

How the results depend on the processing

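The alternatives changed the overlap, the thresholds on −log10 q and fold, the joining of rows, the number of regions, the measure of strength and the regions admitted. Each cut applied to both lists, and sharing was called again and percentiles ranked again among the regions kept. The share of MBD3 regions with TET1 lay between 13.8% and 90.3%, that of TET1 regions with MBD3 between 8.19% and 38.1%, and the median summit distance between 8 and 44 bp. In the order share of MBD3 with TET1, share of TET1 with MBD3, summit distance, and shared minus specific percentile in the MBD3 and in the TET1 list, the values that moved were as follows. With at least 50% of both regions the shares were 52.5% and 21.3% and the TET1 percentile difference 31.1. With −log10 q of at least 5 they were 73.8%, 18.2%, 9 bp, 1.53 and 35.8, and with at least 10 they were 85.9%, 8.19%, 8 bp, −21.1 and 38.2, so the MBD3 percentile difference reversed. The cause was not tested. With a fold of at least 5 the shares were 61.1% and 19.3%, the distance 10 bp and the TET1 difference 36.6. With equal numbers by −log10 q the values were 38.1% and 38.1%, 9 bp, 28.1 and 23.8. Unjoined rows gave 14 bp. Strength by −log10 q gave differences of 39.6 and 31.9. At CTCF alone the share of MBD3 was 90.3%, the distance 11 bp and the differences 22.2 and 33.0. Away from CTCF the values were 13.8%, 27.5%, 44 bp, 11.8 and 10.9, and the shared minus specific width of MBD3 regions reversed, at 51 bp. With sharing and percentiles taken over the whole lists, the medians away from CTCF were 46.1 in shared and 36.4 in specific MBD3 regions. For TET1 regions they were 12.2 and 9.75. These 5 values did not move on chromosomes 1 to 22 and X alone, without regions called with all 4 antibodies, without regions under 3-fold or without the 5 segments with most MBD3-specific regions.

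No paired analysis was possible because the authors pooled the replicates in each list, and leaving out a replicate was not run for that reason. Depth is unknown, and a specific region is one where the other antibody was not called.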
